A study of Drosophila melanogaster with 4 samples.

Results

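Core promoter peaks of CG8924 were the thresholded peaks whose summit lay at most 100 bp from the nearest transcription start site (TSS) of a protein-coding gene, on either side of it, and had no protein-coding TSS of the other strand nearby. A summit within 500 bp of coding TSSs on both strands was left out, so each of these peaks could be assigned to 1 promoter. Of the 7842 thresholded summits, 1049 (13.4%) met the rule. The rule used position only and no measured height. CG8924 is the product of a fly gene known by its number, and it was mapped by chromatin immunoprecipitation with sequencing (ChIP-seq), in which protein-bound DNA is pulled down with an antibody and sequenced. Whole Drosophila melanogaster embryos of mixed sex, aged 0 to 24 h, came from a transgenic line that stably expresses CG8924 with GFP at its C terminus, and an anti-GFP antibody was used. There were 4 biological replicates and 1 condition. An embryo collection of this kind mixes all embryonic cell types and stages, and the labels name neither the driving promoter of the transgene nor an untagged control line.

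The core promoter is the stretch around a TSS where RNA polymerase II and the general transcription factors assemble. In flies, housekeeping promoters often carry the DNA replication-related element (DRE, bound by DREF), Motif 1 (bound by M1BP), Motif 6, Motif 7 or an E-box, while many regulated promoters carry a TATA box, an Initiator or a downstream promoter element (DPE). Genes of the translation machinery often start at a TCT element, a run of pyrimidines that takes the place of the Initiator.

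The promoters with the highest deposited signal are shown first, since they carry the strongest peaks of the class. Each sequence runs 5′ to 3′ along the gene from 100 bases before the TSS, with the TSS as base 101, and was read from the Release 6 (dm6) genome. Capitals mark GAGAGA or CACACA on either strand, or Motif 7. A marked stretch can lie partly or wholly outside the 50 bp to each side of the summit in which motifs were counted below. PNPase and Eip75B are such cases and do not count as holding CACACA or GAGAGA. The 8 are the members of highest signal supported by all 4 replicates that could be printed. They are Ugalt, chrX:2703823-2703952, reverse strand; CG14100, chr3L:19590495-19590624, reverse strand; PNPase, chr3R:31404711-31404840, reverse strand; CG17726, chr3R:11226662-11226791, forward strand.
They continue with CG11857, chr3R:25258798-25258927, forward strand; Eip75B, chr3L:17999792-17999921, reverse strand; CG31886, chr2L:8958084-8958213, reverse strand; CG9399, chr3R:9574182-9574311, reverse strand.
Ugalt: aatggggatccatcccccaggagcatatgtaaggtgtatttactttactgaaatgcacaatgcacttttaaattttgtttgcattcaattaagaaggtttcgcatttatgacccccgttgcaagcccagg
CG14100: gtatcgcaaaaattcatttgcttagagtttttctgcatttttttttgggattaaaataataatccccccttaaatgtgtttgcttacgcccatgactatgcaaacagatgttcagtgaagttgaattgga
PNPase: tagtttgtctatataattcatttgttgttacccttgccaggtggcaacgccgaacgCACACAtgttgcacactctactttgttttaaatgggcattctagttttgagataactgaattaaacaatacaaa
CG17726: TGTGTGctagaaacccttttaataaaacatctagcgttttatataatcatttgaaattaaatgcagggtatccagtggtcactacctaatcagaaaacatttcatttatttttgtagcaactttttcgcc
CG11857: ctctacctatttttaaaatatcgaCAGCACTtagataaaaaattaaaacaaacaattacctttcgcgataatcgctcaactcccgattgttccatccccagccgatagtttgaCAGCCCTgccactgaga
Eip75B: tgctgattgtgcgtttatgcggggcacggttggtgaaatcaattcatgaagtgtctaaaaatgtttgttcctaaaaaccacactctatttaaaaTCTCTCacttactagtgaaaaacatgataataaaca
CG31886: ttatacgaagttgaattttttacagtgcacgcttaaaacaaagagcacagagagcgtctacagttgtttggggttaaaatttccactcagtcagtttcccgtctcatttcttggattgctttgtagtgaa
CG9399: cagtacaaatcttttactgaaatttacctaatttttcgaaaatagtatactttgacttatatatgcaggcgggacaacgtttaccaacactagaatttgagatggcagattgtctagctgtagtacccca

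A second set shows, for DRE, Motif 1, the E-box and Motif 7, which recur in this class, 1 member each that was not already shown. Capitals here mark these motifs and Motif 6, and the AATAAA and CGATAG words are not marked. They are Hip1, chr3L:12773544-12773673, reverse strand; CG4080, chr3L:9399198-9399327, reverse strand; Prx4, chr3L:3042450-3042579, forward strand; drn, chr3R:9340554-9340683, forward strand.
Hip1: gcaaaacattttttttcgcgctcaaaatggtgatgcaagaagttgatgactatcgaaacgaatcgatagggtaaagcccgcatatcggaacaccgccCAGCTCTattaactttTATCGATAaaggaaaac
CG4080: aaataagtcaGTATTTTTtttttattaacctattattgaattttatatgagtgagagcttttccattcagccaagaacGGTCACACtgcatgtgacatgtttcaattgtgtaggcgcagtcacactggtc
Prx4: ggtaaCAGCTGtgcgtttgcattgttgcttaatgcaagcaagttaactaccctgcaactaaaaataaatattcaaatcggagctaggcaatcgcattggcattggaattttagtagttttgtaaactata
drn: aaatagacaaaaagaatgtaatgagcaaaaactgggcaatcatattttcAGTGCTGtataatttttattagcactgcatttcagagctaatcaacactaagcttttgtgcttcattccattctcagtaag

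In Hip1 the DRE (TATCGATA) started 13 bp downstream of the TSS and a Motif 7 (CAGCTCT) 3 bp upstream of it. In CG4080 the Motif 1 (GGTCACAC) started 22 bp upstream and a Motif 6 (GTATTTTT) 90 bp upstream. The E-box (CAGCTG) of Prx4 started 95 bp upstream, and the Motif 7 of drn, on the other strand (AGTGCTG), 51 bp upstream. Among the 8 strongest promoters, CG11857 had Motif 7 (CAGCACT and CAGCCCT) and none had DRE or Motif 1 in the printed bases.

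The peaks at these 4 motif-bearing promoters were supported by all 4 replicates. Hip1, the gene of a Huntingtin-interacting protein, ranked 917 in the thresholded list and 1645, 989, 561 and 621 in the full lists of replicates 1 to 4, with summits at −38, −5, 5 and 28 bp from the TSS. CG4080 ranked 1257, and 2010, 1267, 695 and 1165 in the replicates. Prx4, a peroxiredoxin gene, ranked 732, and 952, 1435, 340 and 627 in the replicates. In each of these 3, replicate 3 placed the peak highest and replicate 1 below replicates 3 and 4. The peak at drn did not follow this order. It ranked 426, and 248, 832, 383 and 576 in the replicates, so replicate 1 placed it highest.

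Within the band that the rule set, slightly more summits lay before the TSS than after it. Of the 1049, 565 were upstream, 3 exactly at the TSS and 481 (45.9%) downstream. The median position was 8 bp upstream (−8), with quartiles at −50 and 41 bp. Within 50 bp lay 589 summits, within 25 bp 279 and within 10 bp 103. The forward strand held 501 of their genes' start sites and the reverse strand 548. The 1049 summits fell at 1049 distinct TSSs of 1050 genes. Of these TSSs 27 carry more than 1 gene name, and 31 genes had more than 1 such peak. A non-coding TSS also lay within 500 bp of 66 summits (6.29%), and 173 (16.5%) had another thresholded summit within 500 bp.

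**Figure D1:**
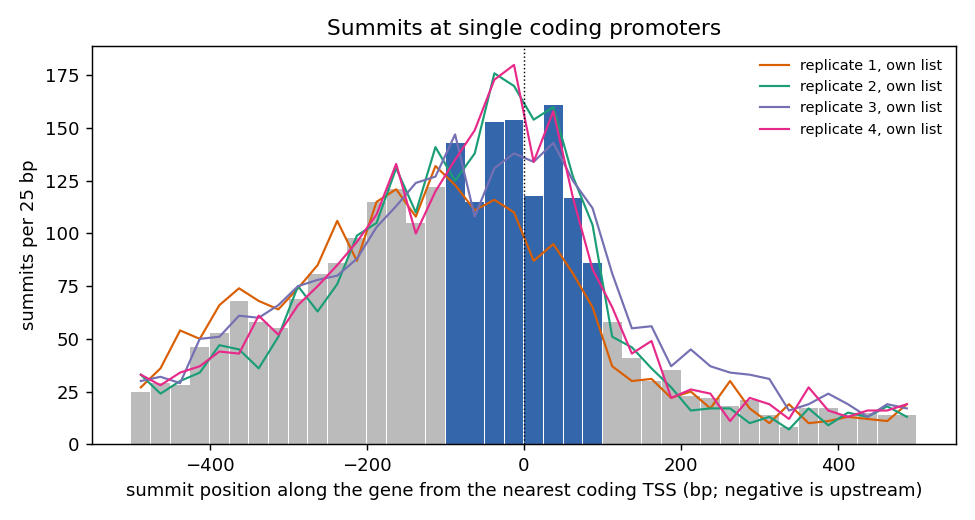
Summits per 25 bp (y axis) by position along the gene from the nearest coding TSS (x axis, bp), for promoters with no coding TSS on the other strand. Bars are the thresholded list, in blue within 100 bp of the TSS, and lines are the 4 replicates' own lists, in which the median core position ran from −14.5 to −1 bp.

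The same class was found in each replicate's own list. Each replicate's 7842 highest-signal peaks, called separately, held 790, 1155, 1038 and 1136 core promoter summits for replicates 1 to 4, or 1030 ± 168 (SD, n = 4). Replicate 1, which was not among the replicates used to make the thresholded list, held the fewest. The median position was −14.5, −5, −1 and −9 bp in the same order, and the downstream share was 41.3%, 46.5%, 48.7% and 43.4%.

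The position of the matched summit was less stable than the overlap of the peaks. In the full lists of 30000 peaks, 98.8% to 99.7% of members overlapped a peak of each replicate, 1021 of the 1049 in all 4. The replicate peak compared was the overlapping one of highest signal, which need not have the nearest summit. A second Prx4 peak at −24 bp was so matched to summits at −223, −289, −234 and −238 bp. The part of this matching in the values below was not tested. The median gap between the 2 summits was 29.5, 22, 26.5 and 27 bp for replicates 1 to 4. The replicate's summit was still within 100 bp of the same TSS in 74.3%, 81.7%, 74.4% and 78.5% of matched members. In 488 members (46.5%) it was so in all 4 replicates. The median range of a member's position over the 4 replicates was 90 bp, nearly as wide as the distance limit, and it was 50 bp or less in 245 members (24.0% of those matched in all 4). Positions given below are those of the thresholded summits unless a replicate is named.

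Core promoter peaks were weaker than the peaks upstream of promoters and at divergent ones. The deposited signal value of members ran from 296 to 7657 with a median of 454, and their median rank was 4691 of 7842, against 2860 for the 1159 upstream promoter peaks (more than 100 and up to 500 bp before a coding TSS), 4437 for the 359 downstream ones, 3331 for the 1359 divergent ones (coding TSSs on both strands) and 4108 for the 3916 remaining peaks. Of the members 128 (12.2%) stood in the highest quartile of signal and 332 (31.6%) in the lowest. Only 4 were among the 100 highest peaks and 45 among the 1000 highest.

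Core peaks stood below upstream and divergent ones in every replicate. A rank percentile of 0 is the highest signal in a list and 100 the lowest. In the replicates' own lists the median core percentile was 62.6, 57.9, 55.1 and 55.0, against 36.6, 37.1, 39.2 and 38.7 for upstream peaks. The groups of 4 values did not overlap, and the core class was on average 19.8 ± 4.70 percentile points lower in strength (SD, n = 4, 4 of 4 replicates). Against divergent peaks the difference was 15.5 ± 2.85 points, also in 4 of 4. For both, the two-sided exact sign-flip permutation test gave p = 0.125, the smallest that 4 replicates allow, and 0.173 after Benjamini-Hochberg adjustment over 18 differences, so no difference here could pass 0.05. Core and downstream peaks differed by less than the spread between replicates, with 57.7 ± 3.54 against 56.3 ± 4.34, a difference of 1.33 ± 2.62 points (core weaker in 3 of 4 replicates, exact permutation p = 0.375, adjusted 0.45).

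**Figure D2:**
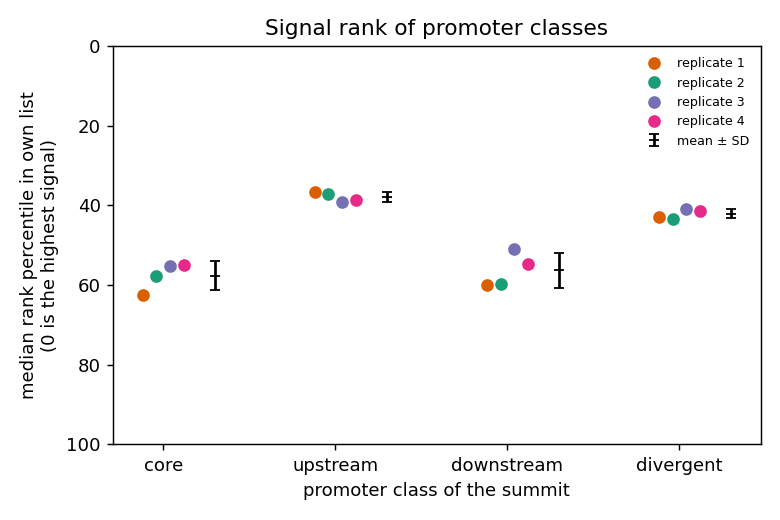
Median rank percentile of each promoter class in each replicate's own list of 7842 peaks (y axis, 0 at the top is the highest signal), with points for the 4 replicates and the mean ± SD beside them. The core points lie at 55.0 to 62.6, below all upstream and divergent points and among the downstream ones.

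Support was counted where 1 of a replicate's 7842 highest-signal peaks overlapped the thresholded peak by at least 1 bp. All 4 replicates supported 595 of the 1049 members (56.7%, 95% exact binomial interval 53.7 to 59.7), against 64.2% of all thresholded peaks, 72.0% of upstream ones and 75.3% of divergent ones. Replicate 1 supported 765 members (72.9%, interval 70.1 to 75.6), against 85.9% of all peaks, 90.9% of upstream and 94.0% of divergent ones. Replicates 2, 3 and 4, whose reads made the list, supported 88.0%, 86.0% and 88.6% of members. Within the quartiles of signal, from highest to lowest, replicate 1 supported 100%, 93.8%, 74.3% and 44.0% of core promoter peaks against 100%, 98.8%, 87.3% and 67.4% of upstream ones. Support by all 4 replicates did not follow this order, with 99.2%, 90.5%, 56.8% and 12.3% of core promoter peaks against 98.5%, 91.1%, 49.5% and 18.9% of upstream ones. Intervals cover counting error over peaks only.

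The strongest members kept their rank and position across replicates. Ugalt, which encodes a UDP-galactose transporter, had the peak of highest signal (7657, rank 5 of 7842) on chrX:2703641-2704140. It ranked 8, 5, 13 and 4 in replicates 1 to 4, and its summit lay at −31, −33, −23 and −42 bp. CG14100 (rank 22) ranked 17, 28, 17 and 28 with summits at −105, −94, −108 and −93 bp, so that 2 of its 4 replicate summits fell just past the 100 bp limit. PNPase, which encodes the RNA-degrading polynucleotide phosphorylase, was bound downstream of its TSS, at 78, 78, 57 and 76 bp, and ranked 37, 15, 29 and 23. Eip75B, an ecdysone-induced nuclear receptor gene, was also bound downstream, at 44, 45, 41 and 49 bp, with ranks of 228, 227, 185 and 210.

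The 20 strongest members supported by all 4 replicates had signals down to 1761, and none ranked worse than 935 in any replicate. Their summits lay upstream in 12 cases and downstream in 8. In 16 of the 20 the summit was more than 50 bp from the TSS. After Ugalt, CG14100 and PNPase they were CG17726, CG11857, Eip75B, CG31886, CG9399, CG15771, CG7639, Ufsp1 (a protease acting on the ubiquitin-like modifier Ufm1), CG10068, CG12316, CG14968, drn, Eogt (a transferase that adds O-GlcNAc to EGF domains), Pld (phospholipase D), GstE13 (a glutathione S-transferase), Usp15-31 (a deubiquitinase) and TRAM (a membrane protein of the translocation pore). The positions in the 4 replicates spanned a median of 22.5 bp per gene and at most 73 bp, and in 15 of the 20 they were within 100 bp of the TSS in all 4 replicates.

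Base composition set core promoter peaks apart from the peaks just upstream. The GC content of the 101 bp around the summit had a median of 43.6% in members, with quartiles of 36.6% and 48.5%. It was 30.7% in upstream peaks, 39.6% in downstream ones, 31.7% in divergent ones and 30.7% in all others. In the replicates' own lists it was 41.6%, 44.6%, 42.6% and 43.6% for core and 29.7%, 30.7%, 30.7% and 31.7% for upstream peaks, which did not overlap, a difference of 12.4 ± 0.99 points (SD, n = 4, 4 of 4 replicates, exact permutation p = 0.125, adjusted 0.173). Coding TSSs in general are also richer in GC than the sequence before them. Windows centred on 14770 coding TSSs had a median of 44.6%. The 11749 of them with no thresholded summit within 500 bp had 43.6%, and the 3021 with one had 46.5%. The members' median was also 43.6%, but their windows are centred on summits and not on the TSS.

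Summits nearer the TSS were richer in GC and weaker than those near the 100 bp limit. Summits within 25 bp of the TSS had a median GC content of 45.5%, those 26 to 50 bp away 44.6%, those 51 to 75 bp away 43.6% and those 76 to 100 bp away 36.6%. On the upstream side, 76 to 100 bp before the TSS, the median was 33.7% for 143 summits, against 40.6% at the same place of promoters without a peak, and 35.6%, 39.6%, 37.6% and 36.6% in the replicates' own lists. Signal moved with distance too, with median ranks of 5031, 4863, 4735 and 3807 from the nearest band to the farthest. Replicate 1 supported 70.3%, 70.0%, 70.6% and 82.7% of them. The rank percentile in the replicates' own lists also improved at each step outward, from 67.7 to 56.1 for replicate 1, from 59.4 to 55.0 for replicate 2, from 57.1 to 52.4 for replicate 3 and from 60.2 to 49.2 for replicate 4. The shifts in replicates 2 and 3 were under 5 percentile points.

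**Figure D3:**
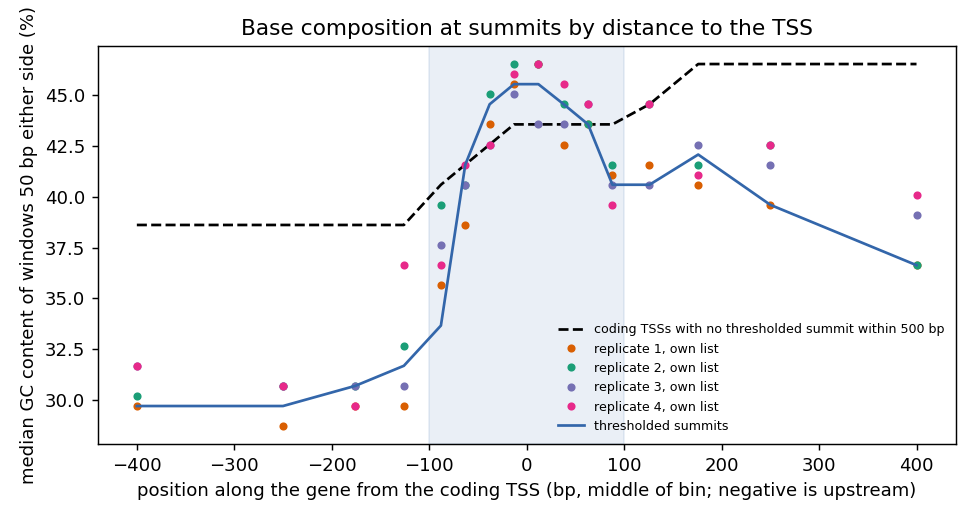
Median GC content of 101 bp windows (y axis, %) by position along the gene from the coding TSS (x axis, bp, middle of each bin), for thresholded summits (blue line), the replicates' own summits (points) and coding TSSs with no thresholded summit within 500 bp (dashed). Inside the shaded 100 bp the summits lie near the dashed line around the TSS and below it at both edges, most at the upstream one.

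At the limit of the rule signal, rank and GC content did not change abruptly, with upstream and downstream summits pooled. The 89 members 91 to 100 bp from the TSS had a median signal of 527, rank of 3843 and GC content of 34.7%, and the 78 summits 101 to 110 bp away had 516, 3943 and 35.6%. Of the summits at the limit itself, those of highest signal were CG17726 and CG31550, both at −100 bp (ranks 90 and 2021). Of those 1 bp past it they were eIF6 and CG7668, both at −101 bp (ranks 156 and 447).

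AT-rich members were the stronger and better supported ones. The 113 members under 30% GC (10.8%) had a median rank of 3271, a median position of −63 bp and 90.3% support from replicate 1. The 226 members at 50% GC or more had a median rank of 4965 and 62.8% support. Upstream peaks held a share of 49.1% under 30% GC, with a median rank of 1937 and 97.4% support. Of the 20 strongest members 12 were under 30% GC, and their median was 28.7%, with a range from 18.8% in Eogt to 51.5% in Pld. In the replicates' own lists the 25% of core promoter peaks of highest signal had 16.5% ± 3.60 (SD, n = 4) of windows under 30% GC and the 25% of lowest signal 7.51% ± 2.64, a difference of the same sign in 4 of 4 replicates. The GC of a fragment can move with its recovery in ChIP and sequencing, and its part in these ranks was not tested.

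Housekeeping promoter motifs were more frequent in core promoter windows than at coding TSSs without a peak. Each motif was looked for on either strand in the 50 bp to each side of the summit. The comparison windows were placed at the same distances from coding TSSs with no thresholded summit within 500 bp, so that position along the gene was matched. DRE (TATCGATA) was in 77 members (7.34%) against 1.68% of the matched windows. Motif 1 (GGTCACAC) was in 66 (6.29%) against 1.42%. The E-box (CAGCTG) was in 103 (9.82%) against 5.49%, Motif 7 (CAGCNCT or CATCNCT) in 164 (15.6%) against 8.44%, and Motif 6 (GTATATTT or GTATTTTT) in 53 (5.05%) against 2.92%. At least 1 of these 5 motifs was in 378 members (36.0%) against 18.1% of the matched windows, and DRE and Motif 1 occurred together in only 4. Windows of divergent peaks held Motif 7 in 14.1%, Motif 6 in 5.67% and the E-box in 5.59%. The shares of Motif 7 and Motif 6 were thus close to those of the core class. No test was made across windows.

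The shares were alike in the 4 replicates. In their own lists DRE was in 6.58%, 6.58%, 5.68% and 6.60% of core promoter windows and Motif 1 in 6.20%, 5.97%, 5.39% and 5.55%. Any of the 5 motifs was in 35.8% ± 0.90 (SD, n = 4). These lists overlap at many of the same promoters, so the replicates are separate libraries over shared sequences.

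DRE and Motif 1 were more frequent in the core class than in its neighbours along the gene. Both motifs keep close to the TSS at promoters without a peak too. There 74.8% of DRE matches within 150 bp lay between 100 bp upstream and the TSS, and Motif 1 had a median at 3 bp. The classes are set by distance to the TSS, so binding and motif placement cannot be told apart in this contrast. Matched windows at the distances of the other classes were not made. In the own lists DRE was in 0.789%, 0.636%, 0.514% and 0.627% of upstream windows, well below each core value, a difference of 5.72 ± 0.38 points (SD, n = 4, 4 of 4 replicates, exact permutation p = 0.125, adjusted 0.173). Motif 1 differed by 5.11 ± 0.38 points in the same direction in 4 of 4. Downstream windows held no DRE, 0 of 359, which allows a share of up to 0.836%, and 0.279% held Motif 1. Divergent promoters were nearer, with 5.62% ± 0.53 for DRE, 0.74 ± 0.60 points under the core class, and 3.73% ± 0.64 for Motif 1, 2.05 ± 0.96 points under it, each in 4 of 4 replicates (exact permutation p = 0.125, adjusted 0.173). With 50% of each replicate's peaks the DRE difference from divergent promoters turned to −0.28 points, the core class being lower (exact permutation, adjusted p = 0.75).

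GAGAGA, the target of GAGA factor, was in 45 members (4.29%) against 4.78% of matched windows. In the own lists it was in 3.67%, 6.49%, 5.88% and 6.78% of core windows and in 4.74%, 8%, 7.03% and 6.18% of upstream ones, which overlap (core lower in 3 of 4 replicates, exact permutation p = 0.25, adjusted 0.321). It was less frequent in divergent windows, at 1.62% ± 0.32, a difference of 4.09 ± 1.25 points (core higher in 4 of 4 replicates), and more frequent in downstream ones, a difference of −1.07 ± 0.33 points (core lower in 4 of 4). Both gave an exact permutation p = 0.125, adjusted 0.173. AATAAA, a word of AT-rich DNA, was in 227 members (21.6%), against 17.3% of matched windows and 37.4% of upstream peaks. CACACA was in 112 (10.7%) against 8.21%. The Zelda word CAGGTAG, bound by that early activator, was in 6 members (0.572% against 0.615% of matched windows). The word TGATAAG, which GATA factors bind, was in 8 (0.763% against 2.29% of matched windows).

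**Figure D4:**
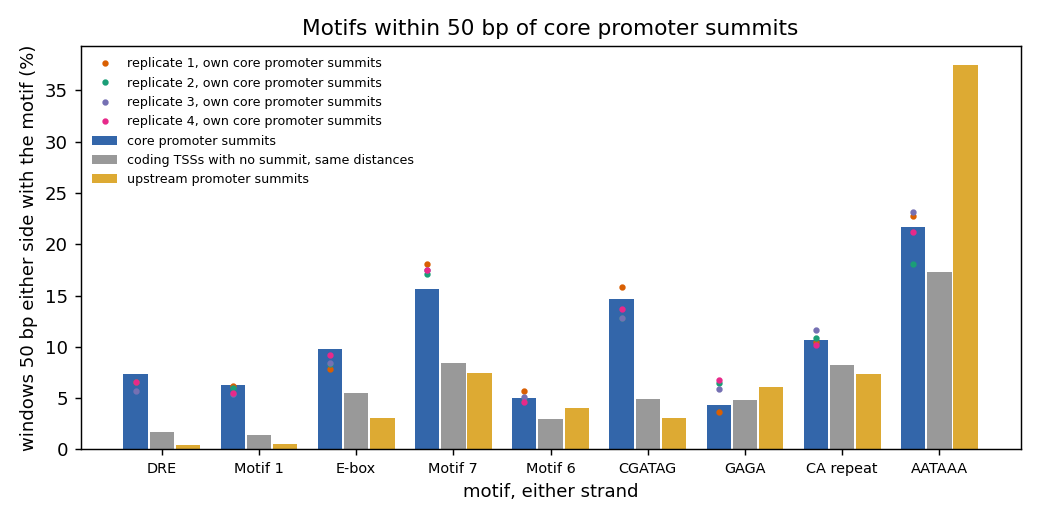
Share of 101 bp windows with each motif on either strand (y axis, %), for core promoter summits (blue), matched places at coding TSSs with no thresholded summit within 500 bp (grey) and upstream promoter summits (yellow). Points are the core summits of the 4 replicates' own lists. DRE and Motif 1 stand at 7.34% and 6.29% in blue and below 2% in grey and yellow.

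Among the 604 words of 6 bases found in at least 5% of members, the one with the highest ratio to coding TSSs without a peak was CGATAG, in 154 members (14.7%) against 5.75%, a ratio of 2.56. ATCGAT (16.4% against 6.81%) and TATCGA (19.7% against 8.67%) came next. ATCGAT and TATCGA are parts of the DRE, while CGATAG shares only CGATA with it, as do CGATAC and GCGATA below. The comparison windows for words were centred on the TSS. In the windows matched for distance the share of CGATAG was 4.88%. AGCCCT (5.05% against 2.23%), ACTATC (8.77% against 3.89%), CGATAC (7.91% against 3.56%), CCTATC (5.05% against 2.32%), ACAGTG (8.29% against 3.95%), GGTCAC (9.34% against 4.54%), which is part of Motif 1, and GCGATA (9.44% against 4.86%) completed the 10. Against upstream peaks the share of CGATAG was 14.7% against 3.02%, while divergent peaks were nearer, at 11.8%.

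Within the class, members with DRE or Motif 1 had lower signal than those without. Members with DRE had a median rank of 5465 against 4550 without it, and members with Motif 1 5273 against 4562. In the replicates' own lists DRE was in 3.87% ± 0.92 of the 25% of core promoter peaks of highest signal and in 8.23% ± 0.88 of the lowest 25% (SD, n = 4), and the latter was higher in 4 of 4 replicates. Motif 1 was in 3.49% ± 1.08 and 6.543% ± 2.24, the latter also higher in 4 of 4, though in replicate 3 the values were nearly equal, at 4.62% and 4.63%. None of the 20 strongest members had DRE or Motif 1 within 50 bp of the summit (0 of 20 allows a share of up to 15%), 2 had Motif 7 and 10 had AATAAA. Members with the E-box had a median rank of 5029 against 4683.5 without it. Motif 7 and Motif 6 went the other way by small margins, with median ranks of 4473 and 4562 with the motif and 4703 and 4708 without it. For the E-box, Motif 7 and Motif 6 no split by signal within the replicates was made. The members of highest signal with each motif, among those supported by all 4 replicates, were Alg3 for DRE and CGATAG (rank 722), RpL30 for Motif 1 (979), CG9399 for the E-box (255), CG11857 for Motif 7 (163) and Usp15-31 for Motif 6 (507). They were HSPC300 for GAGAGA (1110), CG17726 for CACACA (90), PNPase for AATAAA (23), CG14441 for the Zelda word (2071) and CG15771 for the GATA word.

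The places of the motifs along the promoter were close to those at promoters without a peak. Within 150 bp of the members' TSSs there were 174 matches to the DRE, of which 142 (81.6%) were upstream, with a median position of −38.5 bp. Around coding TSSs with no summit nearby, 82.6% of 488 matches were upstream, with a median of −37 bp. The median gap from a member's DRE to its summit was 48.5 bp, and 48 of the 174 (27.6%) lay within 25 bp of it. Motif 1 had 152 matches, 115 of them on the gene's strand, with a median at −0.5 bp, against 3 bp at promoters without a peak.

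Of the elements fixed to the TSS, the TATA box was less frequent at members' TSSs than at those without a peak. A TATA box (TATAAA from 45 to 15 bp upstream, on the gene's strand) was at 30 members' TSSs (2.86%), against 10.1% of coding TSSs with no summit within 500 bp and 4.66% of the TSSs of upstream peaks. In the own lists it was at 1.77%, 3.12%, 2.505% and 2.29%. An Initiator (TCAGT or TCATT from −5 to 8 bp) was at 13.5% of members' TSSs, against 16.8% without a peak and 26.7% at upstream peaks. Over the replicates it ran from 10.3% to 17.1%, a range that includes the share without a peak. A DPE (AGACGTG or AGTCGTG or GGACGTG or GGTCGTG, 15 to 45 bp downstream) was at 3.15%, against 1.28% without a peak. At upstream peaks it was at 3.11%, so it did not set the members apart from these. A TCT element (CCTTTC or CCTTTT or TCTTTC or TCTTTT at the TSS) was at 2.38%, against 1.13% without a peak and 1.47% at upstream peaks.

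Genes for the protein synthesis machinery and for chromatin regulation held core promoter peaks in larger shares than coding genes as a whole. Of 11222 coding genes with a place where such a peak could lie, 1050 had one (9.36%). Among 62 cytoplasmic ribosomal protein genes 32 had one (51.6%). Among 41 translation initiation and elongation factor genes 10 had one (24.4%), among 27 chromatin regulator genes 12 (44.4%) and among 27 cell cycle and DNA replication genes 6 (22.2%). In the replicates' own lists the share of ribosomal protein genes was 46.8%, 54.8%, 50% and 54.8%, against 7.04% to 10.2% of all these genes. That of chromatin regulators was 48.1%, 40.7%, 40.7% and 37.0%, and that of translation factors 29.3%, 24.4%, 24.4% and 22.0%. The cell cycle list was less stable, at 14.8%, 33.3%, 14.8% and 40.7%. Of the 17 lists, 6 were above the share of all genes in every replicate's own list, the other 2 being oxidative phosphorylation (8 of 52 genes, 15.4%) and vacuolar ATPase subunits (4 of 26, also 15.4%). These 2 stood close to all genes, with 11.5% in each own list for the first and 7.69%, 15.4%, 15.4% and 23.1% for the second. Among the highest-signal 50% of thresholded peaks they held 0% and 3.85%. Any thresholded summit within 500 bp of a TSS was also more frequent, so the excess was not limited to core promoter peaks. Such a summit was at 72.6% of ribosomal protein, 46.3% of translation factor, 74.1% of chromatin regulator and 51.9% of cell cycle genes, against 25.6% of all genes. Of the genes with one, 71.1%, 52.6%, 60% and 42.9% had a core promoter peak, against 36.5% of all. How active a promoter is was not measured here, and its part in these shares was not tested.

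**Figure D5:**
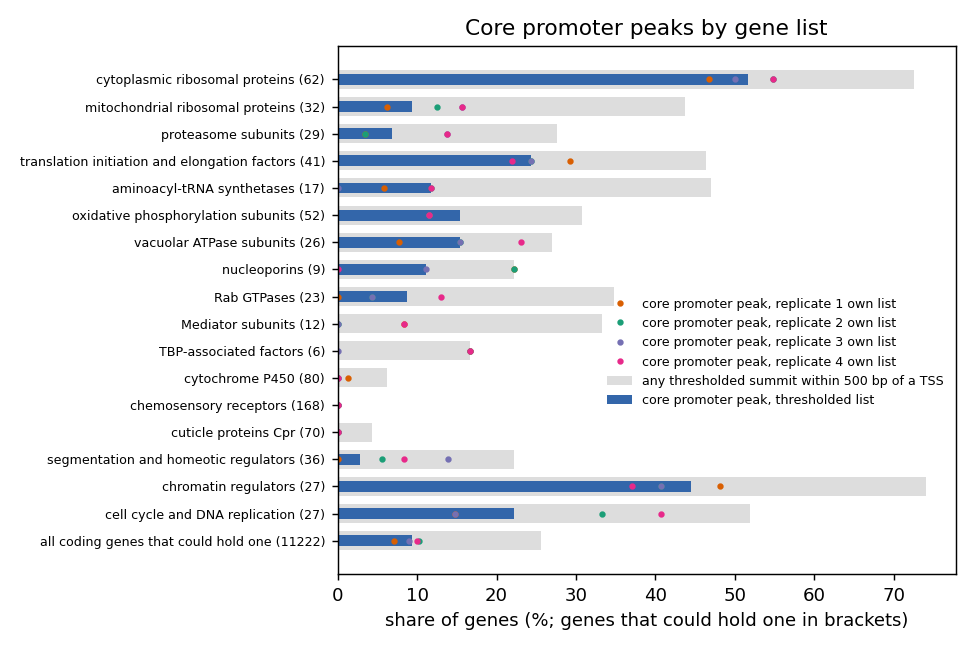
Share of the genes of each list (x axis, %) with a core promoter peak in the thresholded list (blue) and in the replicates' own lists (points), over the share with any thresholded summit within 500 bp of a TSS (grey). Numbers in brackets count the genes that could hold a core promoter peak. Ribosomal protein genes reach 51.6% and all genes 9.36%.

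The ribosomal protein peaks lay on both sides of the TSS, from −100 to 73 bp with a median of −8 bp, 13 of them downstream. All 4 replicates supported 27 of the 32. The highest was RpL30, a large-subunit protein gene (rank 979, chr2L:19009083-19009477, 26 bp downstream), which ranked 1452, 732, 980 and 787 in replicates 1 to 4. RpL23A followed at rank 1115 (56 bp upstream), ranking 1253, 1254, 1023 and 1008, and RpL27 at rank 1565, ranking 2285, 1873, 1249 and 1078. RpS3A, of the small subunit, had its summit exactly at the TSS. DRE was in 6 of the 32 windows, Motif 1 in 3, Motif 7 in 9 and CGATAG in 10.

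The start sites of these genes carried other elements than those of the other members, a description with no test. A TCT element was at 12 of the 32 ribosomal protein TSSs (37.5%) and at 13 of the other 1017 (1.28%). An Initiator, looked for from −5 to 8 bp only, was at 0 of the 32 and at 142 of the other 1017 (14.0%). The count of 0 allows a share of up to 9.38%. The member of highest signal with a TCT that could be printed was RpL23A (chr3L:1668625-1668754, reverse strand), shown with the TCT element in capitals, which starts 2 bp after the TSS. It was chosen after its values were seen. Its sequence also holds TCAGT, an Initiator word, starting just upstream of the searched window.
RpL23A: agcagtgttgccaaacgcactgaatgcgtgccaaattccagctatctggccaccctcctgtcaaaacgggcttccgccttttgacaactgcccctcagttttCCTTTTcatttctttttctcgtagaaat

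Chromatin regulator genes with a core promoter peak included insulator and Polycomb group members. CTCF, an insulator protein gene, had the highest (rank 2404, 2 bp upstream of its TSS), ranking 2126, 2228, 2879 and 3930, and its window held DRE, an E-box and Motif 7. Clamp, whose protein binds GA repeats and acts in dosage compensation, ranked 2722, with replicate 2 far lower (10346) than replicates 1, 3 and 4 (2396, 1945 and 4202). The Polycomb group genes ph-d, Su(z)2, Psc, Scm and Pc ranked 3208, 3678, 4115, 4834 and 6412, and trx, the founding member of the trithorax group, 4702. BEAF-32, which encodes an insulator protein known to bind CGATA words, ranked 4213, at −23 bp. The others were lolal (2752), mle (6477) and mod(mdg4) (7768).

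Among the translation factors, eEF1gamma and eEF2, both of peptide chain elongation, ranked 943 and 1637, with summits 42 bp upstream and 47 bp downstream. Of the cell cycle genes, CycB (a mitotic cyclin) ranked 2162 at 89 bp and stg (the Cdc25 phosphatase) 3506 at 4 bp, with replicate 1 placing stg at 9444 and the others at 2691, 2567 and 2639. Among the oxidative phosphorylation genes, ATPsynC and ND-B17 led at ranks 4072 and 4562, and among the vacuolar ATPase genes Vha16-1 and VhaSFD at 2559 and 5379.

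Other housekeeping lists stood near the average or rested on few genes. Mitochondrial ribosomal protein genes had a core promoter peak in 3 of 32 cases (9.38%, led by mRpL19 and mRpL13 at ranks 2236 and 2537). Some thresholded summit lay within 500 bp of a TSS in 43.8% of them, against 25.6% of all genes that could hold a core promoter peak. Proteasome genes had one in 2 of 29 (Rpn11 and Rpt6, ranks 1762 and 7547), aminoacyl-tRNA synthetase genes in 2 of 17 (PheRS-m and HisRS, 6298 and 6337), Rab GTPase genes in 2 of 23 (Rab11 and Rab4, 2057 and 7810, the latter supported by no replicate) and nucleoporin genes in 1 of 9 (Nup358, 5356). Mediator genes had none of 12 and TBP-associated factor genes none of 6, counts of 0 that allow shares of up to 25% and 50%. In the own lists the Mediator share was 8.33% in replicates 1 and 4 and 0 in the others, and the TBP-associated factor share 16.7% in replicates 1, 2 and 4 and 0 in replicate 3.

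No core promoter peak lay at the genes of 3 tissue-specific families. None of 80 cytochrome P450 genes, 168 chemosensory receptor genes and 70 cuticle protein genes had one, counts of 0 that allow shares of up to 3.75%, 1.79% and 4.29%. Thresholded summits of any kind within 500 bp of a TSS were also scarce there, at 6.25%, 0% and 4.29% of the genes in the same order, against 25.6% of all genes. The absence was therefore not particular to core promoter peaks. In the own lists the P450 share with a core promoter peak was 1.25% in replicate 1, and the other values of the 3 families were 0. Of 36 segmentation and homeotic regulator genes 1 had one, sna, which encodes the Snail repressor (rank 5947, 57 bp upstream), but the share was 0%, 5.56%, 13.9% and 8.33% in the own lists of replicates 1 to 4, against 7.04%, 10.2%, 9.04% and 9.96% of all genes. Genes with a core promoter peak were also longer than the genes that could hold one, with a median of 4672 against 2283 bp, and 48.6% against 70.7% had a single annotated coding TSS. A gene with more TSSs has more places for such a peak, and its part in the list shares was not tested.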

How the data were processed

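The authors deposited narrowPeak lists on dm6, per the labels: 4 replicate lists and a pooled list of 30000 peaks each, and a list of 7842 peaks thresholded for reproducibility. Per the notes deposited with them, the pooled and thresholded lists came from replicates 2, 3 and 4, and every list was called against the same control. Aligner and caller: not given in the sources used here. The authors' signal value is a peak height whose scale differs between lists, so it served to order peaks inside 1 list. The −log10 q-value that the authors deposited was 4.25 for every thresholded peak and separated none. Nearly all peaks of a replicate have 1 width (500, 404, 476 and 424 bp for replicates 1 to 4). Read depth is unknown from these lists. Depth and control reads could change ranks.

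Summits (start plus offset) were assigned to protein-coding TSSs of Ensembl release 115, whose assembly is Release 6 like the files' build (19253 coding TSSs of 13945 genes). Sequence came from the RefSeq genome of that assembly. GC content and motifs were read in 101 bp windows. Gene lists were matched by symbol, and 2 listed symbols had no match. Each replicate's own list is its 7842 highest-signal peaks. Differences between classes were tested over the 4 replicates by two-sided exact sign-flip permutation tests with Benjamini-Hochberg adjustment over 18. The labels call the replicates biological but do not describe separate cultures, so p-values measure the spread between these 4 samples. All else is descriptive. The text names the 20 highest-signal members supported by all 4 replicates, up to 2 genes of each list, the 2 highest-signal summits on each side of the distance limit and, per motif, the highest-signal member supported by all 4 replicates. Sequences shown per motif are of the highest-signal such member not on arm 2R, with the motif both near its summit and in the printed bases, and not already shown. Also named were the other members of the chromatin list, RpL27 and RpS3A, after their values were seen. The members, lists and motifs were chosen with earlier results of these data known. The steps were tested on simulated data, where no summit was put in a wrong class. Python 3.11.15, NumPy 2.4.6, SciPy 1.17.1, pandas 2.3.3 and matplotlib 3.10.9 were used.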

Additional observations from a re-analysis of the deposited data

Results flagged for a closer look

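In 5 of the 35 sets of 4 replicate values checked, 1 replicate stood apart from the other 3 by a gap larger than Dixon's 95% limit. Chance flags about 1 in 20 groups.

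Replicate 1 supported 72.9% of core promoter peaks, while replicates 2, 3 and 4 supported 86.0% to 88.6%. Replicate 1 also stood apart in the difference in rank percentile between core and divergent peaks, at 19.8 points against 13.6 to 14.5 in the others. Replicate 1 is the replicate whose reads were not used for the thresholded list.

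The share of core promoter windows with TATCGATA was 5.68% in replicate 3 and 6.58% to 6.60% in the others. The same gap appears in the difference from the downstream class, where it is 5.68 points in replicate 3, because no downstream window held the motif. Replicate 2 stood apart in the difference in median GC content between core and upstream peaks, with 13.9 points against 11.9 in the other 3, a gap of 2 bases in a window of 101.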

How the results depend on the processing

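The distance limit set the number of core promoter peaks, which was 589 at 50 bp and 1675 at 200 bp, and 402 among the highest-signal 50% of peaks. At 200 bp the median position was −31 bp, the downstream share 38.4%, the median rank 4296 and the GC content 40.6%. Among the highest-signal 50% the rank was 2579, the GC content 41.6%, support by all 4 replicates 93.3% and by replicate 1 95.8%. With an overlap of 50% of both peaks these supports were 25.7% and 57.5%, and with the full lists of 30000 peaks 97.3% and 98.8%. With summits within 100 bp support by all 4 was 41.9%. Leaving out 1 replicate gave 59.96% to 70.6%, the highest without replicate 1. Replicate 1's own list had a median position of −14.5 bp, a downstream share of 41.3% and a GC content of 41.6%, and replicate 3's a position of −1 bp. Of 90 alternative values of the differences between classes in rank, GC content and motif shares, 89 kept their direction. The exception was TATCGATA in core against divergent windows, −0.28 points (core lower) with 50% of each replicate's peaks (exact permutation adjusted p = 0.75). Median widths of the classes were equal, and with 50% of each replicate's peaks they differed by 11.4, 17.5 and −4.75 bp from upstream, downstream and divergent peaks (exact permutation adjusted p = 0.984, 1 and 1). Of 77 alternative motif shares 43, and of 34 gene list shares 17, moved by more than the spread between replicates. The causes were not tested. Using own lists, full lists and peaks supported by replicate 1 was chosen after seeing the data. No paired analysis was possible because there is 1 group, so there are no groups to pair, while differences between classes were taken within each replicate. Depth is unknown, and it limits which weak peaks enter a list of fixed length.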

Other observations

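Core promoter peaks were spread over the chromosome arms nearly as the start sites that could hold one. Per 100 such start sites there were 6.83 on 2L, 6.88 on 2R, 7.30 on 3L, 6.92 on 3R, 5.98 on the X and 8.8 on chromosome 4, the last from 11 peaks at 125 start sites. Between pairs of replicates, Spearman's rho of the members' ranks ran from 0.57 to 0.69, a description over peaks that share a genome and a control.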
